A study of Mus musculus with 6 samples.

Results

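The distal end of a mouse chromosome is the stretch before the telomere that lies farthest from the centromere, because mouse chromosomes carry the centromere at the other end. Here it was taken as the 50 kb bins of chromosomes 1 to 19 whose start lay within 5 Mb of the highest bin start listed in any library, with at least 20 contacts in each library. This gave 1910 bins, between 97 and 101 on each of the 19 autosomes, out of 47875 autosomal bins with contacts. The rule used coverage alone. The 5 bins that fell just short of it had 6 to 18 contacts in their poorest library, and the 5 just inside it had 21 to 27.

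In-situ Hi-C, a count of ligation events between stretches of DNA that lie close together in crosslinked nuclei, was done on mouse embryonic stem (ES) cells of strain 129. The mutant cells, labelled GFP-CTCF-Del8 and called Del8 here, express a GFP-tagged CTCF protein without zinc finger 8, and the cells they were compared with are labelled wild type (WT). The design text describes the comparison cells as expressing GFP-CTCF, so the labels leave unsettled whether WT carries the tag, and they do not say how many clones were used. Each group had 3 libraries, described as biological replicates, with 66266759, 46925260 and 38088173 contacts in Del8 replicates 1 to 3 and 24038030, 24512722 and 36233407 in WT replicates 1 to 3. All coordinates are on mm10.

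CTCF binds DNA through an array of zinc fingers and halts the cohesin complex as it extrudes chromatin loops, which leaves boundaries between domains of frequent contact. Telomeres cap the chromosome ends, and the DNA next to them is often rich in genes and in GC. Contacts inside a chromosome become rarer with distance, so an end has neighbours on only one side and its far contacts all point toward the centromere.

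The distal ends held more gene starts than other bins, 11.5 per Mb against 8.65 per Mb, counting each gene by its lower coordinate. Promoters of the ends had a median GC content of 58.7% (1102 promoters), against 56.7% for the 18982 others on the autosomes, and a median of 16 CpG dinucleotides against 13. The core of the CTCF motif was searched as CCNNNAGNNGGC on both strands in windows of 300 bases, from 250 before to 50 after each RefSeq transcription start (build GRCm38.p6). It matched in 10.2% of promoters of the ends and in 10.1% of the others. The 20 bins with the largest changes in insulation, described further on, held 29 of these promoters, and 4 of the 29 had a match. Those 4 are shown because they place the motif inside the bins that moved most, and they were chosen after the values were seen. All 4 genes lie on the minus strand. The Sirt3 window is chr7:140881820-140882119, that of Sycp2 chr2:178407609-178407908 and that of Dgka chr10:128745035-128745334, all in bins with a higher score in Del8. The Ipo8 window, chr6:148831418-148831717, lies in a bin with a lower score. Each is written 5′ to 3′ on the strand of the gene, and capitals mark the match.
Sirt3: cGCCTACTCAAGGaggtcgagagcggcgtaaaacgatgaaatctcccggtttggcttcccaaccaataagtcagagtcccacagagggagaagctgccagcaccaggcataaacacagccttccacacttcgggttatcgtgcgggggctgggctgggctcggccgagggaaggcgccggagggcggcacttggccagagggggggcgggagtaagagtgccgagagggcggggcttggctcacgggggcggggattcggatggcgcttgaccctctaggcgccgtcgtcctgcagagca
Sycp2: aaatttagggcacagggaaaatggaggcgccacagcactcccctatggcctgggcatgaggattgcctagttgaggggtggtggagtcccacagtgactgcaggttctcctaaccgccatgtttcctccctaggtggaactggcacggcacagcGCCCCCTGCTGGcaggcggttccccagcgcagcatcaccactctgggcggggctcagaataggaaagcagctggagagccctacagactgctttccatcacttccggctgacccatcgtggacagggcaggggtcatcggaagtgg
Dgka: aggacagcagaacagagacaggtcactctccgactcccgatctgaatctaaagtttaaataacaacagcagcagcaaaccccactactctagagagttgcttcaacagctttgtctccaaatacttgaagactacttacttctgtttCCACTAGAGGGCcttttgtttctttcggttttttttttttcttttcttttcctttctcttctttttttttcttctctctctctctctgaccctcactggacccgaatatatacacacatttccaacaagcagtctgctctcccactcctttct
Ipo8: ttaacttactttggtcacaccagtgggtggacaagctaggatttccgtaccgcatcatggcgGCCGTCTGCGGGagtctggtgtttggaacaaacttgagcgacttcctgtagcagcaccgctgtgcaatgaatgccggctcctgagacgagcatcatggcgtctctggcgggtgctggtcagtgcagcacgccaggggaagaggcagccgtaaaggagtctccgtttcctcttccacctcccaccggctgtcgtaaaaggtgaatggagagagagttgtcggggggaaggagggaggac
The matches of Sirt3, Sycp2 and Ipo8 read in the reverse direction and that of Dgka in the forward direction. Sirt3 encodes a mitochondrial deacetylase, Sycp2 a protein of the meiotic synaptonemal complex, Dgka a diacylglycerol kinase and Ipo8 a nuclear import receptor. A match is a description of the letters and not of CTCF binding, which was not measured.

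Not every end could be measured. The Del8 libraries lacked contacts in 0%, 0% and 4.03% of the bins of the ends, against 24.6%, 24.9% and 0% in WT replicates 1 to 3. Lacking means scaled coverage under 0.5 of the third highest library. In other autosomal bins the loss was greater, 35.8%, 36.1% and 0.0114% in WT replicates 1 to 3. After bins lacking in any library were set aside, 1386 of the 1910 remained. The ends of chromosomes 17 and 18 kept 5 and 4 usable bins, that of chromosome 13 kept 18 and that of chromosome 3 kept 25, while 10 ends kept at least 90% of their bins. Bins that were kept held 14.4 gene starts per Mb and bins set aside 4.01, so the results describe the gene-rich share of the ends. The losses follow WT replicates 1 and 2, and results that rest on these libraries are also given without them.

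**Figure D1:**
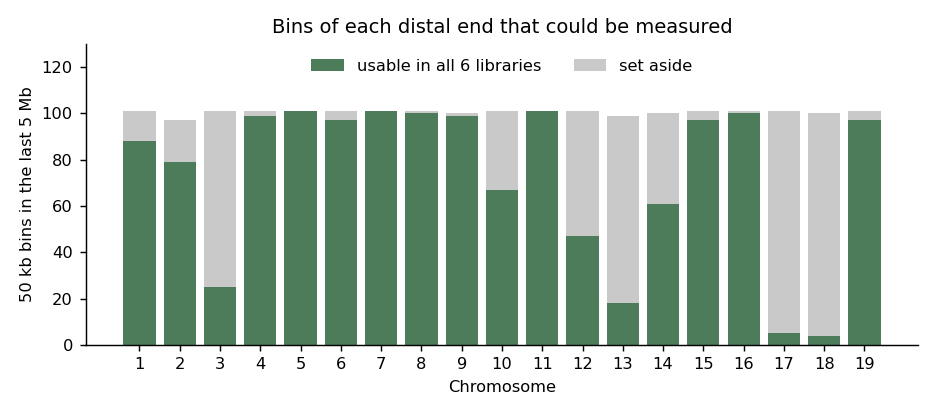
Number of 50 kb bins in the last 5 Mb of each autosome (vertical axis) by chromosome (horizontal axis), split into bins usable in all 6 libraries and bins set aside. Chromosomes 5, 7 and 11 kept all 101 bins, whereas chromosomes 17 and 18 kept 5 and 4.

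Contact inside the ends at 2 to under 5 Mb was lower in Del8. The measure was the mean log2 ratio of balanced contact to the chromosome's mean at the same distance, averaged over the 13 ends with at least 25% of their bin pairs usable. It was -0.051, -0.059 and -0.051 in Del8 replicates 1 to 3, against 0.014, 0.021 and 0.034 in WT replicates 1 to 3. All Del8 values were under all WT values. On these balanced maps WT ends were slightly richer in these contacts than their chromosomes, and Del8 ends poorer. The difference was -0.076 (p = 0.10 by a two-sided exact permutation test, the lowest p possible with 3 libraries a group, and 0.12 after adjustment over the 12 such tests). Without WT replicates 1 and 2 it was -0.087. With bins screened only for 20 contacts in each library, which lets the lost bins in, the difference turned to 0.22 and the groups overlapped. On raw counts of usable bins Del8 was again under WT, but the ends of both groups were richer than their chromosomes. The values were 0.119, 0.106 and 0.114 in Del8, against 0.155, 0.180 and 0.202 in WT.

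Other 5 Mb windows, tiled inward from the ends, did not share this direction on average. Their mean was -0.077, -0.070 and -0.079 in Del8, against -0.10, -0.093 and -0.085 in WT, higher by 0.017 without overlap. The difference between ends and other windows was therefore smaller in Del8, at 0.027, 0.012 and 0.028, than in WT, at 0.11, 0.11 and 0.12. These groups did not overlap, and they differed by -0.093 (exact permutation test, p = 0.10, adjusted 0.12). In the windows next to the ends, 5 to 10 Mb away, 4 rose and 6 fell of 15, with a median change of -0.050.

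Single windows were tested with limma over all windows and distance bands. Of the 13 ends, 8 fell at 2 to under 5 Mb (limma, adjusted p under 0.05), where 21.5% of all 256 windows fell. None of the 13 rose, where 19.9% of all windows rose, and only 1 was higher at an unadjusted p under 0.05. In 10 of the 13 ends the highest Del8 value was under the lowest WT value, which held for 26.6% of all windows. The ends that fell were those of chromosomes 1, 4, 5, 6, 9, 15, 16 and 19. The call on chromosome 1 was lost when any library but WT replicate 3 was left out (log2 change -0.14 to -0.11, limma adjusted p from 0.078 to 0.12), and that on chromosome 9 without Del8 replicate 2, WT replicate 2 or WT replicate 3 (-0.081 to -0.067, limma adjusted p from 0.061 to 0.070). When both WT replicates 1 and 2 were left out, 5 ends fell, those of chromosomes 2, 4, 5, 16 and 19. The ends of chromosomes 1, 6, 9 and 15 then had changes of -0.045, -0.095, -0.095 and -0.10, none past the threshold. In windows of 3 Mb, where this band stops short of 3 Mb, only 1 end fell. On raw counts the ends of chromosomes 5 and 15 had -0.068 and -0.017, and that of chromosome 15 did not pass the threshold.

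The end of chromosome 4 changed most. Its log2 ratio was 0.11, 0.071 and 0.083 in Del8, against 0.33, 0.34 and 0.24 in WT. The groups lay far apart, and contact was 0.860 of WT (log2 change -0.22, SE 0.029, limma adjusted p = 0.0035). This end carries Prdm16, a regulator of brown fat and blood stem cells, Ski, a brake on TGF-beta signalling, and Dvl1, a relay of the Wnt pathway.

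The end of chromosome 16, with the transcription factor genes Erg and Ets2 and the neuronal adhesion gene Dscam, had -0.20, -0.15 and -0.14 in Del8, against 0.019, -0.058 and 0.016 in WT. Its contact was 0.898 of WT (log2 change -0.15, SE 0.027, limma adjusted p = 0.0077). On chromosome 5, which ends with Brca2 and the cohesin regulator Pds5b, the values were -0.098, -0.075 and -0.079 in Del8, against 0.069, 0.083 and 0.028 in WT. The Del8 values were all below 0 and the WT values all above it, a ratio of 0.905 (log2 change -0.14, SE 0.016, limma adjusted p = 0.0021). The other 5 ends that fell had log2 changes between -0.15 and -0.076. The ends of chromosomes 7, 8 and 10 had positive changes of 0.042, 0.094 and 0.080, none past the threshold, and that of chromosome 10 rested on 25.3% of its pairs.

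**Figure D2:**
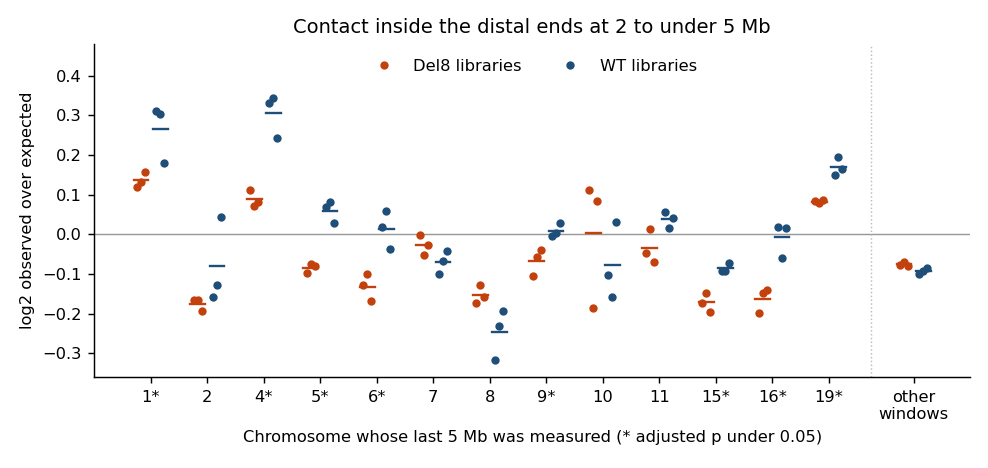
Log2 observed over expected contact at 2 to under 5 Mb (vertical axis) inside the last 5 Mb of each of the 13 chromosomes measured (horizontal axis) and, at the right, averaged over the other 5 Mb windows. Points are libraries, Del8 left of WT, and bars are group means. Del8 lies below WT at the 8 starred ends, and slightly above it in the other windows.

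Shorter contacts inside the ends changed in both directions. At 500 kb to under 2 Mb, 3 of 15 ends rose and 5 fell (27.1% and 20.8% of all windows). The ends of chromosomes 2, 4, 6, 16 and 19 fell, by 0.041 (chromosome 4) to 0.12 (chromosome 2) on the log2 scale, and those of chromosomes 7, 9 and 15 rose. On chromosome 15, whose end holds the Hoxc cluster of body-axis genes, the log2 ratio was -0.32, -0.29 and -0.32 in Del8, against -0.42, -0.43 and -0.39 in WT. Contact there was 1.07 times that of WT (log2 change 0.10, SE 0.015, limma adjusted p = 0.0043), although the same end fell at 2 to under 5 Mb, with a log2 change of -0.086. The end of chromosome 9 likewise rose at the shorter distance, by 0.058, and fell at the longer one. Over the 15 ends the mean was -0.024, -0.014 and -0.021 in Del8, against -0.014, -0.0044 and 0.0031 in WT, apart by a hair. The call on chromosome 16 was lost without any single library but WT replicate 1 (log2 change -0.050 to -0.042, limma adjusted p from 0.055 to 0.074). Without both WT replicates 1 and 2 the ends of chromosomes 4, 7 and 15 did not pass the threshold, with -0.038, 0.051 and 0.079.

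At 50 to 450 kb, 3 of 15 ends rose, those of chromosomes 1, 2 and 4, and none fell (14.4% and 14.7% of all windows), with 1 end lower at an unadjusted p under 0.05 in limma. On chromosome 2 the log2 ratio was 0.091, 0.10 and 0.094 in Del8, against 0.039, 0.030 and 0.026 in WT, so the libraries did not overlap. The ends of chromosomes 2 and 4 thus rose at the shortest distances and fell at 500 kb to under 2 Mb. The mean over ends was -0.0069, -0.0051 and -0.0099 in Del8, against -0.027, -0.026 and -0.011 in WT. WT replicate 3 lay next to the Del8 libraries, and without WT replicates 1 and 2 the difference of 0.014 shrank to 0.0033. The end of chromosome 4 then had a change of 0.033 (limma adjusted p = 0.078).

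In raw counts, contacts that touched a distal end were 5.70%, 5.74% and 5.81% of autosomal contacts in Del8, against 6.19%, 6.47% and 5.97% in WT. The groups did not overlap, with a difference of -0.462 percentage points, and of -0.221 without WT replicates 1 and 2. This is given as a description, since the bins were chosen by their contacts. Of these contacts between different bins, 61.8%, 60.2% and 61.8% joined 2 bins of the same end in Del8, against 60.1%, 60.03% and 54.3% in WT (difference of 3.12 percentage points, p = 0.10, exact permutation test, adjusted 0.12). The groups were separated by only a small gap, with WT replicate 3 far below the others, and the difference was 6.92 without WT replicates 1 and 2 and 1.22 without WT replicate 3. Over usable bins alone it was 1.52, and the groups overlapped.

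The share at 10 Mb or more was 23.9%, 25.2% and 23.6% in Del8, against 25.1%, 24.97% and 30.4% in WT, and the 2 sets overlapped (p = 0.30 by exact permutation test). The difference was -2.59 percentage points, and -0.804 without WT replicate 3. Contacts that touched no end had shares of 16.99%, 17.9% and 16.8% in Del8 and 17.4%, 17.6% and 21.5% in WT, lower in every library. The 2 sets were counted differently, because a contact joined the first with only 1 bin in an end and the other with none. Such counting raises the far share of any chosen stretch, so these levels do not tell the ends from other stretches. The share at 500 kb to under 2 Mb was 21.0%, 20.8% and 21.1% in Del8, against 18.5%, 18.8% and 18.6% in WT. That separation was not limited to the ends: among the other contacts the shares were 23.06%, 22.96% and 22.96% in Del8 and 19.9%, 19.9% and 21.2% in WT.

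Contact between the opposite ends of a chromosome was higher in Del8. It was the mean balanced contact of the last 5 Mb with the first 5 Mb of listed bins, divided by the chromosome's mean at 10 Mb or more, so 1 stands for an average far pair. Averaged over 19 autosomes, it was 0.399, 0.456 and 0.357 in Del8 replicates 1 to 3, against 0.313, 0.271 and 0.318 in WT replicates 1 to 3. All Del8 libraries lay above all WT libraries (difference of 0.103, exact permutation test, p = 0.10, adjusted 0.12), and without WT replicates 1 and 2 the difference was 0.0860. It was 0.0576 on raw counts, 0.0640 with pairs pooled over chromosomes (added after the data were seen) and 0.20 with the looser screen, each without overlap. On average, opposite ends met less often than a typical far pair in both groups. They are the farthest apart of these pairs, and contact falls with distance. A value under 1 is therefore not read as a trait of the ends.

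The mean was higher in Del8 on 17 of 19 autosomes, the exceptions being chromosomes 3 and 6. The groups did not overlap on 9, all with Del8 above WT. Some chromosomes had very few contacts behind these values, 0 or 1 on chromosome 3 and 1 to 9 on chromosome 13. Among the 11 autosomes with at least 20 usable bins at each end, 10 had a higher mean in Del8, 6 did not overlap, and the median ratio of Del8 to WT was 1.17. Their mean difference was 0.0532. This restriction was chosen after the data were seen.

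Chromosome 16 had the clearest change among the well-covered chromosomes. Its value was 0.514, 0.549 and 0.528 in Del8, from 1108, 863 and 686 contacts, against 0.309, 0.338 and 0.328 in WT, from 311, 350 and 497 contacts. The ratio was 1.63, far beyond the spread of either group. On chromosome 19, the shortest autosome, the values were 0.489, 0.517 and 0.512 in Del8, against 0.424, 0.408 and 0.439 in WT, from 795 or more contacts in each library. On chromosome 6, by contrast, they were 0.237, 0.233 and 0.166 in Del8 and 0.247, 0.307 and 0.166 in WT, so the groups overlapped.

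**Figure D3:**
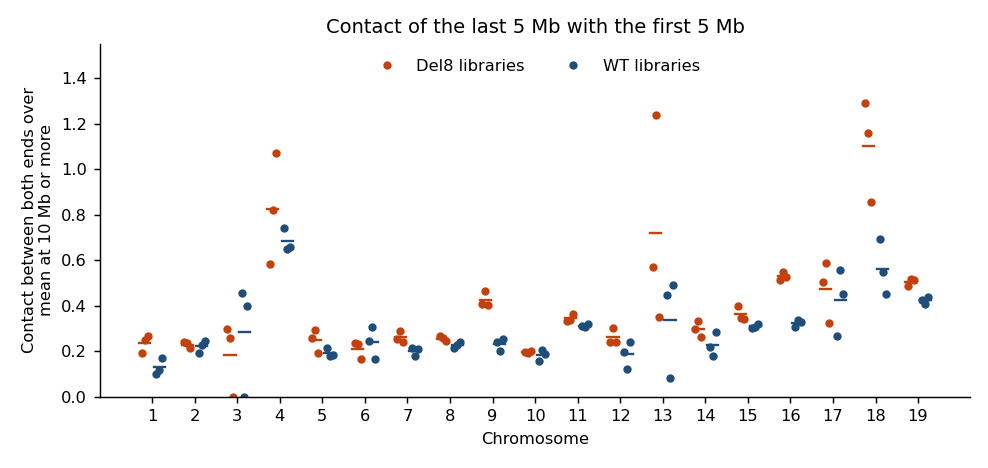
Contact of the last 5 Mb with the first 5 Mb over the chromosome's mean contact at 10 Mb or more (vertical axis) for each autosome (horizontal axis). Points are libraries, Del8 left of WT, and bars are group means. Del8 is above WT without overlap on 9 autosomes, among them chromosomes 16 and 19, and chromosomes 13 and 18 scatter widely, with 17 contacts or fewer in every library.

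The change in far contact of the ends differed along the chromosome. The stretch from the first bin to 10 Mb before the distal end was split into 5 equal parts, a description added after the data were seen. Contact of the distal end with the part nearest to it was 1.99, 1.92 and 1.99 times the far mean in Del8, against 2.21, 2.16 and 2.13 in WT. With the next part the groups overlapped, with means of 1.19 in Del8 and 1.20 in WT. With the middle part it was 0.668, 0.665 and 0.683 in Del8, against 0.616, 0.571 and 0.600 in WT. With the part after that it was 0.507, 0.446 and 0.466 in Del8, against 0.362, 0.348 and 0.384 in WT, a ratio of means of 1.297. With the part nearest the first bin it was 0.398, 0.385 and 0.336 in Del8, against 0.273, 0.298 and 0.315 in WT. So Del8 ends had less contact with the nearest part and more with the 3 most distant parts, relative to each library's own far mean.

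Pairs at the same distances with no bin in a distal end changed in the same direction except in the second part from the end. There they had a ratio of 1.09 without overlap, at 0.875, 0.880 and 0.879 in Del8, against 0.801, 0.800 and 0.813 in WT, where the ends had 0.996. In the nearest part the ratio was 0.939 for these pairs and 0.907 for the ends. In the middle part they had 0.556, 0.560 and 0.556 in Del8, against 0.467, 0.472 and 0.492 in WT, a ratio of means of 1.17, where the ends had 1.13. In the part after that the ratio was 1.21 for these pairs and 1.297 for the ends. None of these ratios was tested against another. At the distances of the part nearest the first bin, on the 15 autosomes with such pairs, the ratio was 1.24 for these pairs and 1.26 for the ends. Higher far contact was thus also measured away from the ends. In each of the 5 parts the level was higher for the ends than for the other pairs in each library. Balancing gives every bin the same total, and an end has neighbours on only 1 side. This higher level is therefore not read as a trait of the ends.

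The insulation score gives local contact across a bin. For each bin, balanced contact was averaged over a square of 500 kb and set against the chromosome's mean on a log2 scale, and a higher score means more contact across the bin. A score could be had for 1183 bins of the ends. Of these, 354 rose in Del8 (29.9%) and 331 fell (28.0%), with 498 neither (limma, adjusted p under 0.05). Over all 22056 autosomal bins with a score, 32.3% rose and 30.2% fell, so the ends did not stand out in number. With the looser screen no bin passed the threshold, 19 being higher and 132 lower at an unadjusted p under 0.05 in limma. Among named bins, those of Gli1 and Lrp1 then had changes of -0.27 and -0.24, neither past the threshold. The median change was 0.0043 in the ends and 0.0014 in all bins.

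The bins nearest the telomere leaned upward. In the last Mb, where only bins at least 500 kb from the end have a score, 44 of 112 bins rose and 17 fell, with a median change of 0.050. Between 3 and 4 Mb from the end, 80 of 285 rose and 103 fell (32.3% and 30.2% of all bins). In the last Mb the mean score was 0.063, 0.079 and 0.076 in Del8, against 0.0037, 0.017 and 0.047 in WT, and the groups did not overlap. Neighbouring bins share most of their squares and are not independent, and no test of the trend was made.

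Ends differed from one another (32.3% of all bins rose and 30.2% fell). On chromosome 10, 34 of 53 bins rose and 4 fell, with a median change of 0.12, and on chromosome 15, 45 of 91 rose and 19 fell, with a median of 0.085. On chromosome 6, 19 of 87 rose and 36 fell, and on chromosome 12, 2 of 30 rose and 8 fell. Both upward-leaning ends were dense in genes, with 162 and 134 gene starts, yet the end of chromosome 7, with 133, had 21 bins that rose and 30 that fell. None of the bins of chromosomes 13, 17 and 18 had a score.

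**Figure D4:**
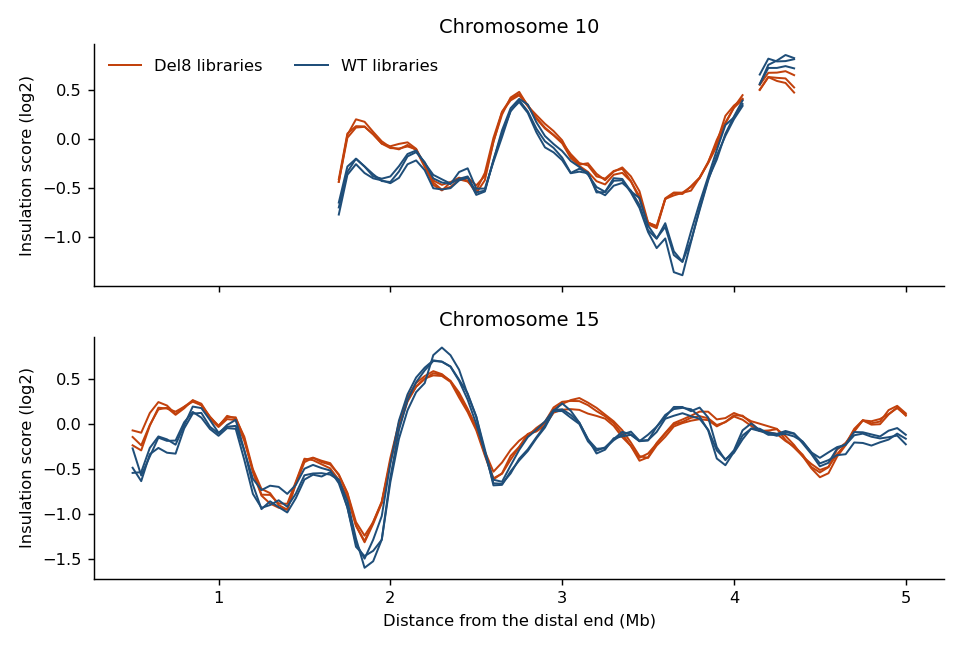
Insulation score (vertical axis, log2) against the distance from the distal end in Mb (horizontal axis) for the ends of chromosomes 10 and 15, with 1 line per library. Gaps are bins without a score. On chromosome 10 the Del8 lines are far above the WT lines at 3.7 Mb from the end, and on chromosome 15 they are above at 0.7 Mb.

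The largest rise was on chromosome 10, in the bin chr10:126850001-126900000, 3.7 Mb from the end, where Atp23, a gene for a mitochondrial protease, starts. Its score was -0.56, -0.55 and -0.54 in Del8, against -1.38, -1.25 and -1.25 in WT. The libraries did not overlap by a wide margin, and contact across the bin was 1.67 times that of WT (log2 change 0.74, SE 0.038, limma adjusted p = 3.12e-07). Further along the same end, the bin of Dgka and Pym1, chr10:128700001-128750000, had 0.18, 0.12 and 0.13 in Del8, against -0.35, -0.28 and -0.28 in WT (log2 change 0.44, SE 0.030, limma adjusted p = 1.39e-06). The promoter of Cdk2, a kinase that drives the cell cycle into S phase, lies in that bin. Gene starts in bins are lower coordinates here and below, so the promoter of a gene on the minus strand can lie in another bin.

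On chromosome 7 the bin chr7:140850001-140900000 rose by 0.48. It holds the starts of Sirt3 and of the proteasome subunit gene Psmd13, and its score was -0.44, -0.50 and -0.60 in Del8, against -1.01, -1.04 and -0.93 in WT. Scores were below 0 in every library, and the SE was 0.044 (limma adjusted p = 7.61e-06). The bin of Larp4, an mRNA-binding protein, on chromosome 15 rose by 0.45, that of Dnajc11, a mitochondrial chaperone, on chromosome 4 by 0.44, and that of the O-mannosyltransferase gene Tmtc1 on chromosome 6 by 0.55. The Tmtc1 bin, which also holds a promoter of Ergic2, spread widely in WT, at -0.70, -0.97 and -0.47. Its change was 0.30 without WT replicates 1 and 2. On chromosome 2 the bin of Cdh26, Fam217b and Ppp1r3d rose by 0.47. The bins chr4:155300001-155350000 and chr15:100700001-100750000, which hold no lower coordinate of a protein-coding gene, rose by 0.51 and 0.44. The first of these holds promoters of Prkcz, an atypical protein kinase C, and the second holds promoters of Galnt6. WT replicate 3 had 0.21 at the Cdh26 bin, against -0.11 and -0.081 in the other WT libraries. The change there was 0.26 without WT replicates 1 and 2 and 0.20 on raw counts.

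The bin of the chemokine receptor genes Ccr1 and Ccr1l1, the outermost bin with a score on chromosome 9, also moved with the WT libraries. It had 0.72, 0.50 and 0.53 in Del8, against -0.15, -0.14 and 0.41 in WT. WT replicate 3 lay close to the Del8 libraries. Its change was 0.54 (SE 0.12, limma adjusted p = 0.0027), and without WT replicates 1 and 2 it was 0.17 (limma adjusted p = 0.067).

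The largest fall was at the bin of Caprin2, an RNA-binding protein, chr6:148800001-148850000, which also holds the Ipo8 promoter. Its score was -0.44, -0.41 and -0.49 in Del8, against -0.19, 0.18 and 0.0032 in WT. The WT libraries spread widely but all lay above the Del8 libraries, and contact was 0.735 of WT (log2 change -0.44, SE 0.071, limma adjusted p = 0.00029). The bin of Wdr48, a cofactor of deubiquitinating enzymes, on chromosome 9 had -0.63, -0.68 and -0.61 in Del8, against -0.28, -0.25 and -0.23 in WT (log2 change -0.39, SE 0.030, limma adjusted p = 2.63e-06).

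The other 8 bins of the 10 largest falls had changes between -0.36 and -0.28. They included those of Rab11fip2, a regulator of recycling endosomes, on chromosome 19, of the kinase gene Brsk2 and the olfactory receptor genes Olfr533 and Olfr535 on chromosome 7, and 5 bins with no protein-coding gene start. The change at Rab11fip2, -0.33, was 0.033 with a square of 250 kb (limma adjusted p = 0.86). With that square the bins chr6:147650001-147700000 and chr4:153100001-153150000, 2 of those with no gene start, had -0.11 (limma adjusted p = 0.48) and -0.20, against -0.35 and -0.33 with the square of 500 kb.

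Boundaries, the local minima of the score, changed less uniformly in the ends than elsewhere. There were 52 in the ends, of which 21 rose (40.4%) and 13 fell (25%), with 18 neither. Of all 1030 boundaries, 51.6% rose and 15.6% fell (limma, adjusted p under 0.05). The median change was 0.019 in the ends and 0.098 at the 978 others. Of the 52, 43 held the start of a protein-coding gene.

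Boundary strength, the score at the boundary minus that 250 kb to either side, is more negative for a stronger boundary. At 48 boundaries of the ends it averaged -0.49, -0.48 and -0.48 in Del8, against -0.53, -0.53 and -0.48 in WT. WT replicate 3 overlapped the Del8 libraries, and the difference of 0.027 did not separate the groups (exact permutation test, p = 0.20, adjusted 0.22). Without WT replicates 1 and 2 it was -0.0018. At 886 boundaries elsewhere the strength was -0.47, -0.46 and -0.47 in Del8, against -0.57, -0.56 and -0.52 in WT.

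Taking the difference within each library, boundaries of the ends minus other boundaries gave -0.027, -0.021 and -0.013 in Del8, against 0.050, 0.037 and 0.034 in WT. The ends had the stronger boundaries in every Del8 library and the weaker ones in every WT library. The groups did not overlap and differed by -0.061 (exact permutation test, p = 0.10, adjusted 0.12), and by -0.054 without WT replicates 1 and 2. With a square of 250 kb it was -0.038, and over the last 10 Mb -0.029. This comparison was added after the data were seen.

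**Figure D5:**
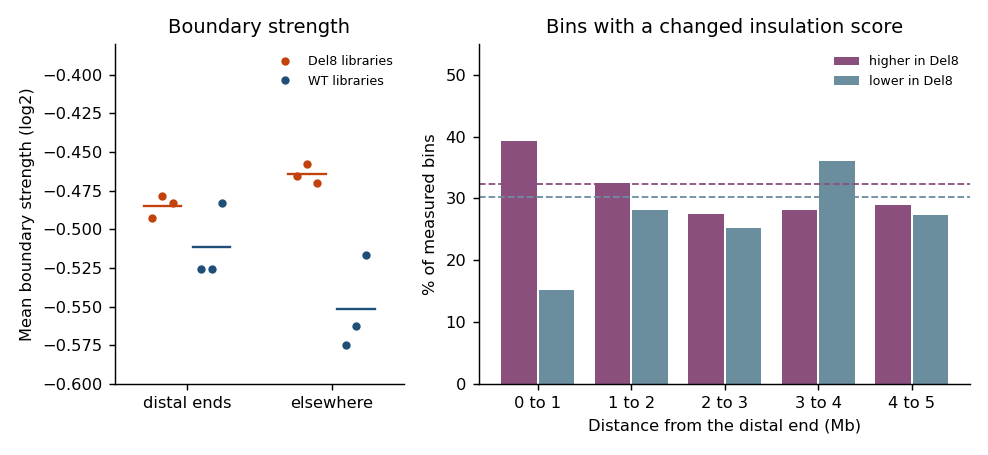
Left, mean boundary strength (log2, more negative is stronger; the axis does not start at 0) at 48 boundaries of the distal ends and 886 elsewhere, with points for libraries, Del8 left of WT, and bars for group means. Right, percent of measured bins whose insulation score was higher or lower in Del8 (limma, adjusted p under 0.05) by distance from the distal end, with dashed lines at the values over all bins, 32.3% higher and 30.2% lower; in the last Mb 39.3% were higher and 15.2% lower.

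Among single boundaries, that of Dnajc11 on chromosome 4 had -0.70, -0.75 and -0.64 in Del8, against -1.17, -1.18 and -1.07 in WT, without overlap (change 0.44). That of Ergic2, a protein of the early secretory pathway, on chromosome 6 rose by 0.43, and a boundary with no gene start at chr8:126950001-127000000 rose by 0.41. The deepest minimum of the 52, at Eif4b, a translation initiation factor, and Tns2 on chromosome 15, had -1.32, -1.24 and -1.30 in Del8, against -1.47, -1.60 and -1.50 in WT. It rose by 0.24 (SE 0.038, limma adjusted p = 0.00029) and was the deepest of the 52 in each library.

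Boundaries that fell included Gorasp1 and Ttc21a on chromosome 9, with -0.66, -0.73 and -0.71 in Del8, against -0.33, -0.37 and -0.32 in WT (change -0.36). On chromosome 11 the boundary of the Polycomb genes Cbx2 and Cbx8 fell by 0.12, that of Septin9, a cytoskeletal GTPase, by 0.13 and that of Tha1 and Tmem235 by 0.090. At Tha1 and Tmem235 the groups overlapped, with WT replicate 1 at -0.447 among the Del8 libraries (limma adjusted p = 0.047). None of the 5 boundaries of the chromosome 11 end rose.

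Genes were also taken in lists of known roles whose starts lie in the ends. Of the 34 developmental regulators, 29 could be measured in 22 bins, of which 10 rose, 5 fell and 7 did neither, with a median change of 0.051. Over all bins, 32.3% rose and 30.2% fell. Nfe2, a transcription factor of platelet formation, lies just outside the Hoxc cluster on chromosome 15, in a bin with 0.18, 0.17 and 0.21 in Del8, against -0.19, -0.32 and -0.17 in WT. That bin rose by 0.41 (SE 0.039, limma adjusted p = 8.99e-06). The 3 bins of the Hoxc cluster itself also rose, by 0.085 to 0.091, although with a square of 250 kb none passed the threshold and Hoxc4 had -0.036, and with the looser screen all 3 had changes below 0. The bins of Sp1 and Sp7 rose by 0.16 and 0.14. Gli1, an effector of Hedgehog signalling, had a change of 0.12 and Emx2, a forebrain patterning gene, of 0.14. Bhlhe41, a repressor of the circadian clock, fell by 0.18 (a change in the other direction, 0.12 and not past the threshold, with a square of 250 kb), Hes5, a Notch target, by 0.12, Nanos1, a germ cell gene, by 0.12, Gata5 by 0.088 and Ets2 by 0.074.

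Of 24 signalling genes, 15 were measured, each in a bin of its own, and 7 rose, 4 fell and 4 did neither, with a median of 0.066 (32.3% and 30.2% of all bins rose and fell). The growth factor receptor gene Erbb3, on chromosome 10, had -0.083, -0.073 and -0.092 in Del8, against -0.45, -0.44 and -0.38 in WT, without overlap, and rose by 0.34. The square of its bin overlaps that of the Dgka and Pym1 bin named above. Itga5, for the fibronectin receptor subunit, rose by 0.35, Notum, a secreted enzyme that inactivates Wnt, by 0.20, Ptger3 by 0.17, Lrp1 by 0.13, Itgb1 by 0.087 (a change of -0.052 in raw counts) and Ntsr1 by 0.070. Cd81 fell by 0.25, Ctnnb1, for beta-catenin, by 0.15, Pthlh by 0.13 and Fgf3 by 0.088.

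The imprinted genes of distal chromosome 7, which are expressed from only the maternal or the paternal copy, gave 3 bins that rose, 3 that fell and 2 that did neither, out of 8, beside 32.3% and 30.2% of all bins. The bin of Kcnq1ot1, the noncoding RNA that silences its neighbours on the paternal copy, had -0.093, -0.069 and -0.094 in Del8, against 0.33, 0.28 and 0.22 in WT, and fell by 0.36. The bins of Kcnq1, a potassium channel gene, and of Cd81 with Tssc4, next to it, fell by 0.26 and 0.25. The bin of Igf2, a fetal growth factor, and Ins2 had 0.18, 0.17 and 0.15 in Del8, against -0.15, -0.099 and -0.0057 in WT, and rose by 0.25, although with a square of 250 kb the change was -0.068. Cdkn1c with Slc22a18 and Phlda2 with Nap1l4 rose by 0.12 and 0.24. Rises and falls thus lay within 1 Mb of each other, and the maps do not tell the parental copies apart.

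Of the 20 genes of genome maintenance and housekeeping, 18 were measured in 16 bins, of which 4 rose, 3 fell and 9 did neither, both shares under the 32.3% and 30.2% of all bins, with a median of 0.0053. Cdk2 had 0.073, 0.048 and 0.047 in Del8, against -0.40, -0.36 and -0.38 in WT, and rose by 0.43 (SE 0.027, limma adjusted p = 8.07e-07). Its bin lies 1900 kb from the end of chromosome 10, that of Erbb3 2000 kb and that of Dgka and Pym1 1850 kb. Their squares overlap, so these bins describe the same stretch. Sirt7 rose by 0.17, Arhgdia and P4hb by 0.10 and Espl1, for the protease separase, by 0.079. The bin of Eif3a fell by 0.12, as did that of Cbx2 and Cbx8.

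Of the 7 chemokine receptor genes on chromosome 9, 4 were measured, and Ccr1 alone passed the threshold. Of 13 long neuronal genes, 7 were measured, with 2 that rose, 1 that fell and 4 neither (32.3% and 30.2% of all bins). Prkcz rose by 0.42, with 0.29, 0.32 and 0.23 in Del8, against -0.14, -0.17 and -0.12 in WT. Dscam fell by 0.072. List medians ran from -0.0097 (chemokine receptors) to 0.066, beside 0.0014 for all bins. The lists were not tested as groups.

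Several of the smaller changes lost their call when a library was left out. Of the 36 bins of listed genes past the threshold that are reported here, leaving aside those among the 20 largest changes, 12 lost the call in limma when 1 library was left out, with adjusted p up to 0.18. Gata5 lost it without Del8 replicate 1 (change -0.082), as did Hoxc12 (0.082), and Itgb1 lost it without Del8 replicate 2 (0.076). Fgf3 lost it without Del8 replicate 1, Del8 replicate 3 or WT replicate 3 (-0.091 to -0.068). Emx2 (0.094 to 0.13) and Espl1 (0.067 to 0.080) lost it without Del8 replicate 1 or 2 or WT replicate 1 or 2, and Arhgdia (0.075 to 0.096) without Del8 replicate 2 or 3 or WT replicate 1 or 2. Hoxc4 (0.065 to 0.094) and Hoxc6 (0.064 to 0.093) lost it without any library but WT replicate 3, Ets2 (-0.086 to -0.059) without any but WT replicate 2, Dscam (-0.076 to -0.057) without any but Del8 replicate 2, and Ntsr1 (0.063 to 0.080) without any of the 6. Without both WT replicates 1 and 2, Sp7 (0.071), Lrp1 (0.050), Ptger3 (0.068) and Sirt7 (0.088) lost it as well. The changes at Emx2, Hoxc4, Hoxc6 and Arhgdia then shrank to 0.029, 0.038, 0.027 and 0.011. The changes of Sp1 and Notum were then 0.094 and 0.13, both past the threshold. All these changes kept their sign. On raw counts Emx2 (0.048), Hoxc4 (0.060) and Ptger3 (0.075) did not pass the threshold, nor with a square of 250 kb did Hoxc6 (0.029), Hoxc12 (0.037), Nanos1 (-0.027), Pthlh (-0.015) and Arhgdia (0.0086).

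Finally, single contacts between pairs of 100 kb bins up to 2 Mb apart were tested with edgeR, with offsets for chromosome and distance. Of 8638 pairs in the ends, 389 rose and 374 fell, 4.50% and 4.33%, against 4.7% and 4.13% of all 152519 pairs. The lean depended on distance: at 100 to 400 kb 217 rose and 149 fell of 2402 (7.97% and 6.29% of all pairs), and at 1 to 2 Mb 37 rose and 73 fell of 3606 (1.82% and 1.9% of all pairs). At 500 to 900 kb, 135 rose and 152 fell of 2630 (5.6% and 5.13% of all pairs). Where a boundary separated the bins of an end pair, 2.52% rose and 2.28% fell, and where none did, 6.76% rose and 6.66% fell. The part of distance in this was not tested.

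On chromosomes 15, 10 and 6 the counts of pairs leaned like the scores (4.7% and 4.13% of all pairs rose and fell). On chromosome 15, 66 of 638 pairs rose and 21 fell, on chromosome 10, 33 of 290 rose and 11 fell, and on chromosome 6, 14 of 589 rose and 50 fell. On chromosome 7, by contrast, 50 of 702 pairs rose and 33 fell, where 21 bins rose and 30 fell, and on chromosome 8, 35 of 769 pairs rose and 24 fell, where 25 bins rose and 31 fell. Rises and falls of pairs were near equal on chromosomes 1 and 4. On chromosome 1, 17 of 520 pairs rose and 19 fell, where 20 bins rose and 17 fell. On chromosome 4, 52 of 714 pairs rose and 56 fell, where 38 bins rose and 27 fell. The largest rise joined chr1:194300001-194400000 and chr1:195200001-195300000, with 40, 31 and 33 contacts in Del8, against 2, 4 and 13 in WT. Del8 exceeded WT throughout, 3.06-fold after the offsets (log2 change 1.62, SE 0.37, edgeR adjusted p = 0.0011). Without WT replicate 3 the log2 change was 2.50.

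Both named rises on chromosome 7 crossed the boundary at Urah. One joined the 100 kb of Cyp2e1, a drug-metabolising enzyme, with that of Irf7, a regulator of the interferon response, and had 103, 76 and 51 contacts in Del8, against 16, 19 and 14 in WT (2.64-fold, SE 0.24 on the log2 scale, edgeR adjusted p = 4.90e-06). The other joined the olfactory receptor genes Olfr536 and Olfr538 with the interferon-induced genes Ifitm3 and Ifitm6, with 47, 49 and 35 contacts in Del8, against 10, 4 and 14 in WT (2.68-fold). Both pairs describe the same stretch. On chromosome 15 the contact between Atf1 and the keratin genes Krt7 and Krt81 was 2.93-fold that of WT, from 24, 20 and 16 contacts in Del8, against 5, 1 and 5 in WT. On chromosome 9 a pair 2 Mb apart that starts at Eif1b was 2.60-fold. The call on chromosome 15 was lost without any library but WT replicate 1 (log2 change 1.15 to 1.66, edgeR adjusted p from 0.055 to 0.18) and that on chromosome 9 without WT replicate 2 (1.17, edgeR adjusted p = 0.054). Without both WT replicates 1 and 2, those 2 pairs, the second pair on chromosome 7 and the pair on chromosome 1 did not pass the threshold, with log2 changes of 1.41, 1.16, 1.08 and 0.85.

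Falls rested on fewer contacts. The largest, on chromosome 5, ended at Hsph1, a heat shock protein gene, and B3glct, with 15, 7 and 9 contacts in Del8, against 17, 14 and 21 in WT. The raw counts of the groups overlapped, from shallower libraries in WT, and after the offsets contact was 0.335 of WT (log2 change -1.58, SE 0.38, edgeR adjusted p = 0.0023). On chromosome 19 contact between Shtn1 and Prlhr was 0.367 of WT. The other 3 named falls were at 0.390 of WT, for a pair that starts at Lpgat1 on chromosome 1, and at 0.400 and 0.404 of WT, for 2 pairs on chromosome 6 that share a bin. The pair of Lpgat1 lost the call without Del8 replicate 3 or WT replicate 1 (log2 change -1.13 and -1.06), and of the pairs on chromosome 6, which both start at 146400001, the one that ends in the bin starting at 147800001 lost it without any library but WT replicate 1 (-1.54 to -1.09). Without both WT replicates 1 and 2 these pairs and those on chromosomes 5 and 19 had log2 changes of -0.95, -1.44, -1.52 and -1.56, none past the threshold in edgeR.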

How the data were processed

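Hi-C libraries of mouse ES cells were analysed from files the authors deposited, each a raw contact count for every pair of 50 kb bins on a chromosome. The submitters' processing notes name mm10 as the build, and the aligner and the read filters were not given in the sources used here. Groups of 3 Del8 and 3 WT libraries came from the labels. By coverage of usable bins no library was a copy of another (chi-square over degrees of freedom at least 1.84). The WT libraries did not form a close group by this measure. WT replicate 3 had 3.36, 2.71 and 2.85 against Del8 replicates 1 to 3, but 6.46 and 6.06 against WT replicates 1 and 2. Those 2 WT libraries had 5.42 against each other, and the Del8 libraries had 1.84 to 2.26 among themselves. Total counts ran from 24038030 to 66266759, and counting error limits pairs with few contacts.

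The member bins, the gene lists and the tests were chosen with earlier results of these data known. Usable bins had, in all 6 libraries, scaled coverage of at least 0.5 of the third highest library and above 0.1 of the library's own scale. Balancing was by iterative correction of each chromosome, diagonal excluded. A score needed 50% of its 500 kb square, and a boundary was a minimum of the summed map with prominence 0.2 or more. Scores and log2 observed over expected contacts of 5 Mb windows were tested with limma 3.58.1. Pairs of 100 kb bins with a mean count of 10 or more were tested with edgeR 4.0.16 (quasi-likelihood test). Both tests covered the whole table, with Benjamini-Hochberg adjustment. Single values per library were compared by 12 two-sided exact permutation tests. Alternatives were DESeq2 1.42.0, TMM factors, raw counts, thinned counts, a looser screen, other lengths of the ends, other squares and left-out libraries. The tests were checked on simulated data.

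The text names the 10 largest rises and the 10 largest falls of score among bins past the threshold without overlap between groups and at least 250 kb apart, the 5 largest rises and falls of pairs, and listed genes. Some listed genes are not reported here one by one, and the counts per list include them. Boundaries and ends were picked out after their values were seen. Genes were placed by their lower coordinate in RefSeq's GRCm38.p6 annotation, the assembly of mm10. Same-numbered Del8 and WT libraries did not deviate together from their group means, so replicate numbers were not treated as pairs. Chromosome X and the mitochondrial genome were not used here. P-values measure only the spread between these libraries.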

Additional observations from a re-analysis of the deposited data

Results flagged for a closer look

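Contact at 2 to under 5 Mb stood out because ends and the mean of the other windows moved in opposite directions. The windows next to the ends, 5 to 10 Mb away, shared the negative median of the ends but changed in both directions. Of these 15, 4 rose and 6 fell, with a median change of -0.050 (19.9% and 21.5% of all windows rose and fell). In the distal ends the 3 Del8 libraries were all under the 3 WT libraries, and in the mean of the other 5 Mb windows they were all over them. The difference between ends and other windows was 0.027, 0.012 and 0.028 in Del8, against 0.11, 0.11 and 0.12 in WT, which differ by -0.093 on the log2 scale (p = 0.10 by a two-sided exact permutation test, the lowest possible here). The 13 ends measured are those that kept enough usable bins. The part of lost bins, which differ between WT replicates, in this result was not tested. The difference was -0.097 without WT replicates 1 and 2 and -0.091 on raw counts. Both values were taken over the same usable bins, so the lost bins stayed out. With the looser screen, which lets the lost bins in, contact of the ends changed by 0.22 with overlap, so the ends were then not lower in Del8, and the difference from other windows was -0.53.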

How the results depend on the processing

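Leaving out WT replicates 1 and 2, the libraries that lost bins, kept the sign of every value given once per library except boundary strength at the ends, which became -0.0018. The share at 10 Mb or more then separated the groups, at -6.16 percentage points. Ends that rose numbered 3 over the 3 distance bands, against 6 with all libraries, those that fell at 2 to under 5 Mb numbered 5, and 124 pairs rose and 129 fell. The lone WT library is then assumed to vary as the Del8 libraries do. Leaving out 1 library at a time gave 0.019 to 0.041 for boundary strength, separating the groups without Del8 replicate 1 or WT replicate 3, and -3.52 to -0.804 for the share at 10 Mb or more, separating them without Del8 replicate 2. It gave 234 to 335 pairs that rose and 233 to 300 that fell, the fewest without Del8 replicate 1. Contact at 2 to under 5 Mb ran from -0.081 to -0.071, its difference from other windows from -0.096 to -0.088, contact between opposite ends from 0.077 to 0.127, bins that rose from 298 to 376 and bins that fell from 278 to 321.

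The screen mattered most. Screening only for 20 contacts in each library left 0 bins that rose or fell, with 19 higher and 132 lower at an unadjusted p under 0.05 in limma. It left 0 ends that rose or fell in any band, with 1 at an unadjusted p under 0.05 in limma. Boundary strength then separated the groups, at 0.033. Mean contact inside the ends changed by -0.27 at 50 to 450 kb, -0.10 at 500 kb to under 2 Mb and 0.22 at 2 to under 5 Mb, and the ends against other windows differed by -0.61, -0.34 and -0.53 in the 3 bands, with overlap in the first and second. The sign turned, below the threshold, at the bins of Emx2 (-0.071), Prdm16 (-0.17), Hoxc4 (-0.11), Hoxc6 (-0.11), Hoxc12 (-0.12), Gli1 (-0.27), Sp1 (-0.044), Sp7 (-0.065), Itga5 (-0.083), Lrp1 (-0.24), Ntsr1 (-0.23), Cdkn1c (-0.064), Sirt7 (-0.0045), Arhgdia (-0.070) and Espl1 (-0.12). It also turned at 50 to 450 kb on chromosomes 1, 2 and 4 (-0.75, -0.53 and -0.52), at 500 kb to under 2 Mb on chromosome 15 (-0.0097), and at 2 to under 5 Mb on chromosomes 6, 9, 15 and 19 (0.015, 0.26, 0.011 and 0.30). This screen admits bins that nearly lack contacts in WT replicates 1 and 2. Counting the shares over usable bins alone made the share inside the ends overlap, at 1.52.

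On raw counts boundary strength separated the groups, at 0.055, and the groups overlapped at 50 to 450 kb (0.011, and 0.017 against other windows) and at 500 kb to under 2 Mb (-0.022, and -0.021 against other windows). There 2 ends rose, Itgb1 turned to -0.052, and chromosome 1 at 50 to 450 kb turned to -0.00054. With thinned libraries the groups overlapped at 500 kb to under 2 Mb (-0.014). Over ends that kept 90% of their bins they overlapped at 50 to 450 kb (0.011) and at 500 kb to under 2 Mb (-0.013). A square of 250 kb gave 212 bins that fell and a boundary strength of 0.086, and turned Rab11fip2 (0.033), Hoxc4 (-0.036), Bhlhe41 (0.12) and Igf2 (-0.068). Prominences of 0.1 and 0.3 gave a boundary strength of 0.046 and 0.043, without overlap. DESeq2 called 123 pairs higher and 116 lower.

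Taking the last 3 Mb, 204 bins rose and 165 fell, 189 pairs rose and 169 fell, 6 ends fell, of which 1 at its longest band, and the groups overlapped at 50 to 450 kb (0.015, and 0.017 against other windows), at 500 kb to under 2 Mb (0.0064, and -0.0048 against other windows) and in the share inside (2.90). Taking the last 10 Mb, 788 bins rose and 792 fell, 894 pairs rose and 881 fell, 11 windows rose, the share inside overlapped (2.61) and boundary strength separated the groups (0.059). These lengths change how many bins are counted. Except where a construction is named, the cause of each change was not tested.

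With the replicate number as a block, 341 bins rose and 318 fell, 6 ends rose and 12 fell, and 360 pairs rose and 351 fell. Same-numbered libraries deviated with correlations of -0.045, -0.017 and -0.093, so the numbers gave no pairing, and not every library correlated best with its own number. Contact at 2 to under 5 Mb kept its sign and separation in every alternative run except the looser screen.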
